A study of Mus musculus with 3 samples.

Results

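Nqo1, the gene of NAD(P)H quinone dehydrogenase 1, was followed through the cells of the mouse vomeronasal organ (VNO). It is 1 of 32285 genes in the feature list, and it was chosen by its level, which earlier looks at these libraries had shown to be high in V1R cells of the control. Its levels here are therefore a description with no test. V1R cells were barcodes with at least 5 receptor UMIs (unique molecular identifiers, counted molecules) of which at least 80% came from Vmn1r genes, and V2R cells had at least 80% from Vmn2r genes. Barcodes with 200 to 9000 genes and at most 10% mitochondrial UMIs were kept. Of 4795 kept barcodes of the control, 360 were V1R cells and 80 V2R cells. Of 3956 in the P10 mutant 144 and 46 were, and of 6960 in the adult mutant 139 and 88.

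All 3 libraries came from VNOs of male mice on a mixed C57 BL/6J and 129P2/OlaHsd background and were made by 10x Genomics 3′ single-cell RNA sequencing. The control was heterozygous for OMPCre and taken at postnatal day 10 (P10). Both mutants were double heterozygous for OMPCre and R26AP2e, the P10 mutant at the age of the control and the adult mutant at 3 months (3-month mutant in the plots). Every group thus carried OMPCre, a Cre recombinase driven from the locus of the olfactory marker protein gene Omp, and R26AP2e is a Rosa26 allele for ectopic expression of Tfap2e, whose product is the transcription factor AP-2ε. Because Omp is a gene of maturing sensory neurons, the transgene is expected in neurons that have begun to mature and not in earlier precursors. Each group was 1 library, so at P10 a difference by genotype and one by library cannot be told apart, the same holds for age between the mutants, and no control of 3 months was among the samples. How many animals each suspension held is not given in the sources used here. Intervals in brackets are 95% intervals and cover counting error only, neither the spread between cells nor that between animals.

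NQO1 is a flavoenzyme of the cytosol that reduces quinones by a pair of electrons at once, which bypasses the reactive semiquinone. It is a classic target of the transcription factor NRF2 (encoded by Nfe2l2), which is held back by KEAP1 and acts at antioxidant response elements, and it also responds to the aryl hydrocarbon receptor (AHR). In the main olfactory epithelium Nqo1 is known as a marker of sensory neurons of the dorsal zone. In the VNO, sensory neurons (VSNs) divide into apical neurons, which carry V1R receptors, Gnai2 and Meis2, and basal neurons, which carry V2R receptors, Gnao1 and Tfap2e.

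In the annotation GENCODE M21 for GRCm38, Nqo1 (ENSMUSG00000003849) lies on the minus strand of chromosome 8 at chr8:107388225-107403206, in 6 exons. Its last exon, chr8:107388225-107389124, holds the end of the coding sequence and 597 bases of 3′ UTR, which is where a 3′ library counts molecules. It overlaps 0 other annotated genes and its neighbours are Nfat5 and Nob1, at distances of 8708 and 9280 bases. The bases directly before its annotated start are shown because they are the promoter region of the gene that is described. They are 249 bases at chr8:107403207-107403455, minus strand, GRCm38.p6, from RefSeq, with a TATAAA box in capitals that starts 28 bases before the annotated start.

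Nqo1 upstream: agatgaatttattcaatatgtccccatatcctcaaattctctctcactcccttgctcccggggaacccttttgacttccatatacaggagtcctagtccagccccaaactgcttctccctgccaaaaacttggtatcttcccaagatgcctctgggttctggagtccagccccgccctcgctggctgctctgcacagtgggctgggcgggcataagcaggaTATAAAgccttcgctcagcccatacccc

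TATAAA occurred on either strand in 12.4% of 32851 RefSeq promoter windows of the same length. The core of the antioxidant response element (TGACNNNGC, in 10.1% of the windows), the core to which AHR binds (GCGTG, 28.1%), palindromic AP-2 sites with a spacer of 3 bases (GCCNNNGGC, 13.6%) or of 4 bases (12.2%) and a CCAAT box (CCAAT, 33.8%) were searched on both strands and had 0 matches in this window. No match says only that these letters are not in this window.

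The files held 8202, 8864 and 10293 barcodes in the control, the P10 mutant and the adult mutant, with 83870584, 80760046 and 70074800 UMIs in all. Kept cells had a median of 10236, 10766.5 and 5010.5 UMIs, so the adult library was shallower per cell. Libraries shared 21 to 30 cell barcodes in pairs, of which 4 to 9 were kept. The cells were grouped into 59 clusters without Nqo1 or any receptor gene among the clustering genes. Both clusters named for mature VSNs passed 10 of 10 markers of that class and also 10 of 10 of immature neurons, and both clusters named for immature neurons passed 10 of 10 of theirs. One of the mature clusters was shallow, with a median of 1034 UMIs. Tfap2e, the ectopic gene, stood at 0.433 CPM (UMIs of a gene per 1000000 UMIs) in V1R cells of the mature clusters in the control, at 684 CPM in the P10 mutant and at 252 CPM in the adult mutant. It was also read outside mature neurons in the P10 mutant, at 293 CPM in V1R cells of the immature clusters, 78.0 CPM in those of sustentacular clusters and 452 CPM in those of the other clusters. The same sets of the control stood at 42.9, 0 and 8.18 CPM. Tfap2e was among the 10 leading genes of an unnamed cluster (number 16) with 2, 207 and 111 cells of the control, the P10 mutant and the adult mutant.

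V1R cells of the control stood at 117 CPM of Nqo1 (109 to 125, 888 UMIs). The P10 mutant stood at 12.0 CPM (8.88 to 15.8, 50 UMIs) and the adult mutant at 79.1 CPM (68.8 to 90.6, 210 UMIs). P10 mutant over control thus gave 0.102 (0.0753 to 0.136), and adult mutant over P10 mutant 6.61 (4.84 to 9.19). V2R cells were low in every library, at 10.2 CPM (5.72 to 16.9) in the control, 23.8 CPM (15.5 to 34.8) in the P10 mutant and 11.9 CPM (5.96 to 21.4) in the adult mutant. In the control V1R cells therefore held 11.4 times (6.90 to 20.5) the level of V2R cells. In the P10 mutant V1R over V2R cells was at 0.503 (0.307 to 0.842), and in its mature clusters at 0.542 (0.228 to 1.30), an interval that holds 1. Of the 26 Nqo1 UMIs of its V2R cells 14 lay outside the neuronal clusters and 7 in 1 cell.

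The V1R rule reads receptor UMIs alone, and not all barcodes that met it were neurons by the rest of their RNA. Of V1R cells, 61.1% in the control, 52.8% in the mutant of P10 and 43.2% in the adult mutant fell in clusters named for mature or immature neurons. The others lay in sustentacular clusters, in mixed clusters, nearly all of them in cluster 38 (143 cells), which passed 10 of 10 markers of mature VSNs and also 3 of sustentacular cells, or elsewhere. Barcodes outside the neuronal clusters held 33.7% of the Nqo1 UMIs of V1R cells in the control, 68.0% of those in the P10 mutant and 99.5% in the adult mutant, 209 of 210. The level at 3 months thus rested on those barcodes. Vmn1r RNA was also found in cells that should lack it, at 38.6, 14.1 and 12.7 CPM in macrophages and at 103, 60.0 and 39.7 CPM in sustentacular clusters (control, P10 mutant, adult mutant), and 8.75%, 8.14% and 3.28% of the barcodes of sustentacular clusters met the V1R rule.

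In V1R cells of the mature clusters Nqo1 stood at 251 CPM (231 to 272) in the control, from 580 UMIs in 142 cells. The same cells of the P10 mutant had 13 UMIs in 47 cells, 13.7 CPM (7.27 to 23.4), and those of the adult mutant 1 UMI in 52 cells, 2.15 CPM (0.0545 to 12.0). Both mutants were far below the control, with intervals that did not overlap it: the ratio to the control was 0.0545 (0.0288 to 0.0939) at P10 and 0.00858 (0.000217 to 0.0480) at 3 months. Between the mutants the ratio of 3 months to P10 was 0.158 (0.00371 to 1.05), the reverse of the direction over all V1R cells, and its interval reached 1. The adult cells were shallow, with a median of 1768.5 UMIs against 19371.5 in the control, and 3 counts in them would have been 6.46 CPM. Omp in these cells stood at 452, 355 and 422 CPM and Gnai2, the apical G protein subunit, at 3263, 2514 and 2274 CPM in the control, the P10 mutant and the adult mutant. All 3 sets thus carried genes of mature apical neurons, but they were not alike in other ways. Gap43, a gene of immature neurons, stood at 458, 461 and 45.2 CPM in the same order. Of the 52 adult cells, 19 expressed Vmn1r43 most, with a median of 872 UMIs.

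**Figure D1:**
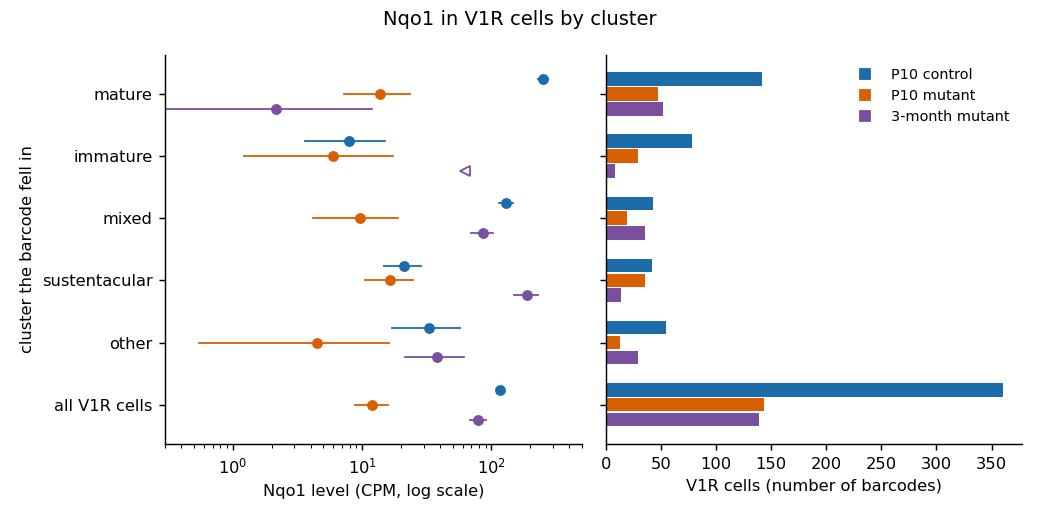
Left, the Nqo1 level (CPM, log axis) of V1R cells in each library by the cluster the barcode fell in, with bars for the 95% Poisson interval, cut at the left edge, and an open triangle at the upper bound where no UMI was found. Right, the number of V1R cells; in the mature row the control stands at 251 CPM, the P10 mutant at 13.7 and the adult mutant at 2.15.

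In the mixed clusters V1R barcodes stood at 130 CPM (115 to 148) in the control, 9.64 CPM (4.16 to 19.0) in the P10 mutant and 85.3 CPM (69.8 to 103) in the adult mutant. V1R barcodes of sustentacular clusters stood at 20.9, 16.6 and 187 CPM in the same order, and 1 cell held 38 of the 87 UMIs behind the last value. Sustentacular cells themselves stood at 12.7, 17.7 and 122 CPM. Their UMI counts were high: the mixed barcodes had a median of 51523, 48825 and 33990 UMIs. Whether these barcodes hold more than 1 cell was not tested, since the doublet caller had not worked.

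In the control Nqo1 was high in mature and low in immature V1R cells. There V1R cells of the immature clusters stood at 7.87 CPM (3.60 to 14.9, 9 UMIs in 78 cells), against 251 CPM in the mature clusters. Immature neurons without a receptor call stood at 3.56 CPM (1.43 to 7.33) and neuronal precursors at 1.39 CPM (0.287 to 4.06), near the level of macrophages and monocytes at 1.09 CPM (0.132 to 3.93), which stands here for free RNA. Immature V1R cells of the P10 mutant stood at 5.94 CPM (1.22 to 17.3), a ratio to the control of 0.754 (0.131 to 3.02) that leaves both a fall and a rise within the interval. At 3 months only 8 such cells were found, with 0 UMIs, which allows 50.8 CPM.

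Sorting the V1R cells of the neuronal clusters by 2 maturation genes gave the same order in the control. Cells of the control with a UMI of Gap43, the growth-cone gene of immature neurons, and none of Omp stood at 25.6 CPM (16.4 to 38.0, 72 cells), with 15 of the 24 UMIs in 1 cell. Those with both stood at 231 CPM (212 to 251, 110 cells), and those with Omp and without Gap43 at 171 CPM (110 to 255, 20 cells). In the P10 mutant the 23 cells with Gap43 alone stood at 17.4 CPM (6.98 to 35.8) and the 41 cells with both at 9.39 CPM (4.29 to 17.8). The higher level of cells with both, seen in the control, was not seen in the P10 mutant, whose intervals overlapped.

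Within the P10 mutant, Tfap2e could be read in the same cells. Of 47 V1R cells in the mature clusters, 41 had a Tfap2e UMI and stood at 9.09 CPM of Nqo1 (3.93 to 17.9, 8 UMIs), while the 6 without one stood at 69.7 CPM (22.6 to 163, 5 UMIs). The 6 cells were shallow, with a median of 3551.5 UMIs against 24623, so a missing Tfap2e UMI does not show that the gene was silent, and the 5 UMIs are too few to weigh. In the control 1 of 142 such cells had a Tfap2e UMI.

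Among single cells the control was uneven. Of 120 V1R cells of its mature clusters with at least 2000 UMIs, 50 had no Nqo1 UMI, the median cell had 0.490 UMIs per 10000, the upper quartile was 3.34 and the highest cell reached 16.1. A count of at least 10 UMIs was reached by 22 cells, and the 10 cells with the most UMIs held 48.1% of all 576. In the P10 mutant 34 of 42 such cells had none and the highest count was 4 UMIs, at 1.94 per 10000. Its highest value per 10000, 3.67, was a single UMI in a cell of 2728 UMIs. In the adult mutant 24 of 25 had none and the other had 1.

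**Figure D2:**
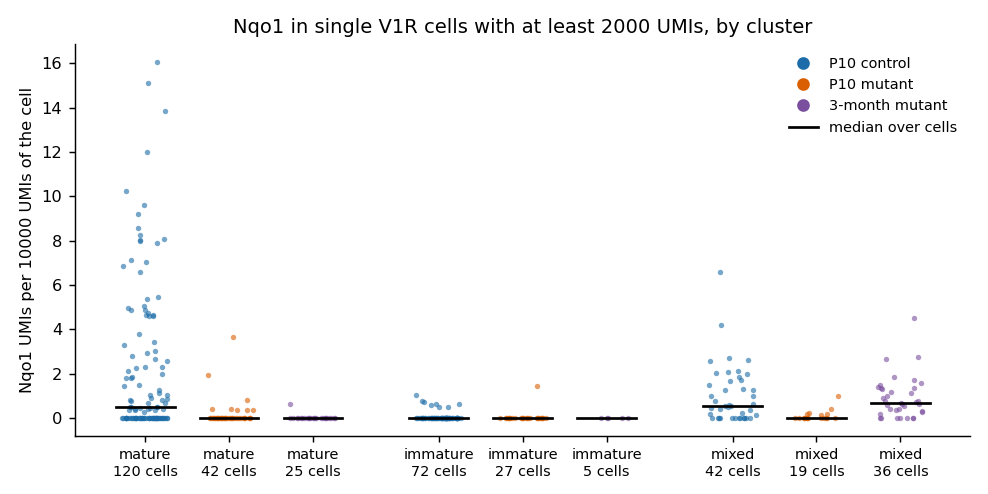
Nqo1 UMIs per 10000 UMIs in each V1R cell with at least 2000 UMIs (points), by cluster and library, with the median over cells as a black line. In the mature clusters the control spreads from 0 to 16.1, while 34 of 42 cells of the P10 mutant and 24 of 25 of the adult mutant lie at 0.

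The share of V1R cells with an Nqo1 UMI was 38.6% (33.6% to 43.9%) in the control, 21.5% for the P10 mutant and 36.7% for the adult mutant before depth was set equal. With each cell thinned to 2000 UMIs, which left out 59, 7 and 36 cells, it was 13.3% (9.67% to 17.7%), 2.92% (0.801% to 7.31%) and 16.5% (9.92% to 25.1%). In V1R cells of the mature clusters the thinned share was 29.2% (21.2% to 38.2%) in the control, 4.76% (0.582% to 16.2%) in the P10 mutant and 0 of 25 cells in the adult mutant, with an interval of 0% to 13.7%. Macrophages and monocytes, which should lack neuronal RNA, gave 0.613%, 0.510% and 0.722% at the same depth, with unthinned median depths of 10461, 10620 and 3930 UMIs. Thinned V2R cells gave 0 of 73 cells in the control, 4.55% in the P10 mutant and 0 of 54 cells in the adult mutant. Over 20 other draws the share in mature V1R cells ran from 22.5% to 35.8% in the control and from 0% to 7.14% in the P10 mutant, and over all V1R cells of the adult mutant it ran from 5.83% to 17.5%.

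Mature V1R cells of the control stood at 251 CPM, beside 240.1 CPM (198 to 288) in the 65 cells of the mature clusters that had no receptor call. The latter were left out of the order of classes that follows. Mixed and unnamed clusters and barcodes with receptors of both families were left out too. Of these, the mixed barcodes without a receptor call stood at 110 CPM (129 cells, with 37 of 96 UMIs in 1 cell). Only 7 of them had an Nqo1 UMI, and the mean over cells was 18.0 CPM. The mixed clusters include cluster 23, with 123 control cells, which passed markers of mast cells and of macrophages. Barcodes with receptors of both families stood at 29.9 CPM (18.8 to 45.3, 30 cells). In that order, over named classes with at least 20 cells, fibroblasts came next after mature V1R cells and were 10.3 times lower (7.95 to 13.4). Fibroblasts stood at 24.5 CPM (19.0 to 31.1), chondrocytes at 15.8 CPM, V2R cells of the mature clusters at 15.3 CPM (7.35 to 28.2), sustentacular cells at 12.7 CPM (10.5 to 15.3), smooth muscle and pericytes at 12.4 CPM and basal epithelial cells at 9.08 CPM (7.05 to 11.5). Osteoblasts, dendritic cells, endothelial cells and lymphocytes stood below 5 CPM. From the second class down, only fibroblasts differed from the class that follows them, and narrowly (1.55, 1.00 to 2.44); for the other 18 neighbours in this order of 21 classes the interval of the ratio held 1 or no ratio could be formed.

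In the P10 mutant the order of classes was led by fibroblasts, at 25.6 CPM (20.1 to 32.3), and mature V1R cells took the fifth place of 19. None of the 18 neighbouring pairs in that order had an interval above 1. Mature-cluster cells without a receptor call stood at 52.5 CPM (24.02 to 99.7, 9 UMIs in 19 cells) in the P10 mutant, also below the control. In non-neuronal classes P10 mutant over control was 1.05 (0.741 to 1.48) in fibroblasts, 0.758 (0.482 to 1.17) in basal epithelial cells and 1.39 (1.08 to 1.79) in sustentacular cells. It was 2.32 (1.19 to 4.72) in V2R cells, from 26 UMIs in 46 cells against 15 in 80, and 1.89 (0.525 to 6.57) in immature neurons without a receptor call. In V2R cells of the mature clusters the levels were 15.3 and 25.2 CPM (13.0 to 44.1), with intervals that overlapped. The V2R cells of the P10 mutant carried more Gnai2 than those of the control (722 against 210.03 CPM), and its part in the Nqo1 level was not tested.

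**Figure D3:**
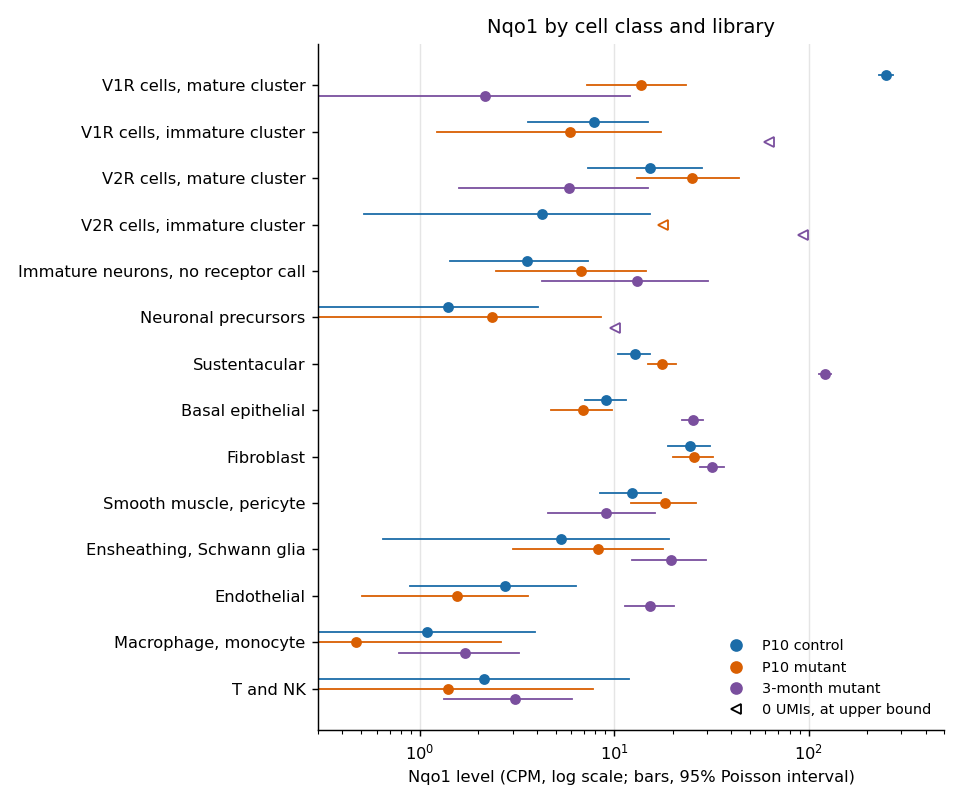
Nqo1 level (CPM, log axis) by cell class in the control, the P10 mutant and the adult mutant, with bars for the 95% Poisson interval, cut at the left edge, and open triangles at the upper bound for classes with no UMI. Mature V1R cells of the control stand at 251 CPM against 24.5 CPM in fibroblasts, and sustentacular cells of the adult mutant at 122 CPM.

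At 3 months sustentacular cells, the supporting cells of the epithelium, led the order of 18 classes. Sustentacular cells stood at 122 CPM (113 to 131, 739 UMIs in 409 cells), 6.90 times (5.76 to 8.30) those of the P10 mutant and 9.57 times (7.85 to 11.8) those of the control. Basal epithelial cells stood at 25.4 CPM (22.4 to 28.7), 3.69 times (2.55 to 5.51) the P10 mutant, and endothelial cells at 15.3 CPM (11.3 to 20.2), 9.86 times (3.95 to 31.7). Ciliated cells stood at 65.5 CPM (47.0 to 88.9, 49 cells), with sustentacular cells above them by a ratio of 1.86 (1.36 to 2.61). Only 10 of the 49 ciliated cells had an Nqo1 UMI, and 1 cell held 18 of their 41 UMIs. Fibroblasts, at 31.9 CPM, were 1.25 times (0.947 to 1.66) the P10 mutant. The sustentacular cells of the P10 libraries and of the adult library fell mostly in separate clusters, numbers 1 and 15. The adult cells of cluster 15 stood at 143 CPM (133 to 154). Those of cluster 40, which holds cells of both ages, stood at 7.99 CPM (3.21 to 16.5) at 3 months and 11.6 CPM (5.01 to 22.9) in the control. Cluster 40 passed 6 of 7 sustentacular markers and also 4 of basal epithelial cells. The sustentacular marker Fezf2 stood there at 1.45 CPM in the control and 5.71 CPM at 3 months. In cluster 1 of the control and cluster 15 at 3 months it stood at 352 and 442 CPM. The marker Cyp2a5 went the other way, at 2649 and 3385 CPM against 132 and 1225 CPM. Whether cluster 40 holds the same supporting cells was not tested. Basal epithelial cells (clusters 2 and 8) and fibroblasts (clusters 12 and 11) also fell mostly in separate clusters at P10 and at 3 months. Because the adult library also differs in age and Cell Ranger version and has no control of its age, these cannot be told apart.

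Some mature-cluster cells carried too few receptor UMIs for a call. In the control 65 such cells stood at 240.1 CPM (198 to 288). Those with more UMIs of Gnai2 than of Gnao1 held 113 of their 114 Nqo1 UMIs, at 329 CPM (271 to 396, 36 cells), and the other 29 cells 1 UMI. At least 5 UMIs of Olfr genes, the receptors of main olfactory neurons, were found in 9 of the 65 cells, which stood at 90.4 CPM (50.6 to 149), and 54 cells had under 5 UMIs of both Olfr and Fpr genes and stood at 339 CPM (274 to 414). In the P10 mutant 16 cells with more Gnai2 than Gnao1 stood at 56.3 CPM (25.7 to 107), and in the adult mutant 10 such cells had 0 UMIs, which allows 29.8 CPM.

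Vmn1r genes lie in clusters on several chromosomes, and a mature VSN expresses mainly 1 of them. In V1R cells the leading receptor held a median of 98.7% of the Vmn1r UMIs in the control. After 14 ties were left out, 24 receptors had at least 5 control cells, and 20 of the 24 had an Nqo1 UMI. Vmn1r55 was highest at 476 CPM (367 to 608, 64 UMIs, with a UMI in 3 of 7 cells), and 1 cell held 41 of its UMIs. Vmn1r185 followed at 218 CPM (164 to 285, 6 of 11 cells), Vmn1r37 at 215 CPM (159 to 286, 4 of 10), Vmn1r84 at 202 CPM (118 to 324, 2 of 5) and Vmn1r218 at 148 CPM (67.7 to 281, 5 of 8). One cell also held 33 of the 54 UMIs of Vmn1r185, 28 of the 48 of Vmn1r37 and 15 of the 17 of Vmn1r84. The levels include barcodes outside the neuronal clusters, without which the order differs: Vmn1r84 then had 2 UMIs in 4 cells, 75.1 CPM, and Vmn1r55 63 UMIs in 6 cells, 592 CPM. The interval of Vmn1r55 lay above those of the 4 receptors after it, but it does not cover the spread between cells, and those 4 overlapped one another.

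At the other end, 4 receptors had 0 Nqo1 UMIs: Vmn1r20 in 9 cells, which allows 13.0 CPM, Vmn1r192 in 5 (29.4 CPM), Vmn1r221 in 5 (31.9 CPM) and Vmn1r236 in 6 (42.6 CPM). In the mature clusters alone the cells were fewer, 3 each for Vmn1r20, Vmn1r192 and Vmn1r236 and 4 for Vmn1r221, and 0 UMIs there allow 202, 79.3, 104 and 38.2 CPM, so that most of these limits reach the levels of other receptors. Vmn1r229 had 2 UMIs in 22 cells, 21.9 CPM (2.65 to 78.9), but these cells were shallow, with a median of 1449.5 UMIs. By position, among receptors with at least 5 cells, the 9 of chromosome 7 ran from 24.2 to 476 CPM with 0 of 9 at 0. The 7 of chromosome 6 ran from 0 to 215 CPM, the 5 of chromosome 13 from 0 to 148 CPM and the 3 of chromosome 17 from 0 to 44.2 CPM. Vmn1r62, also of chromosome 7, had 4 cells and so fell outside this set, with 0 UMIs (42.1 CPM allowed). Receptors differed in the depth of their cells, with a median of 1449.5 UMIs for Vmn1r229 and 25405 for Vmn1r89 as examples, and most had under 10 cells.

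**Figure D4:**
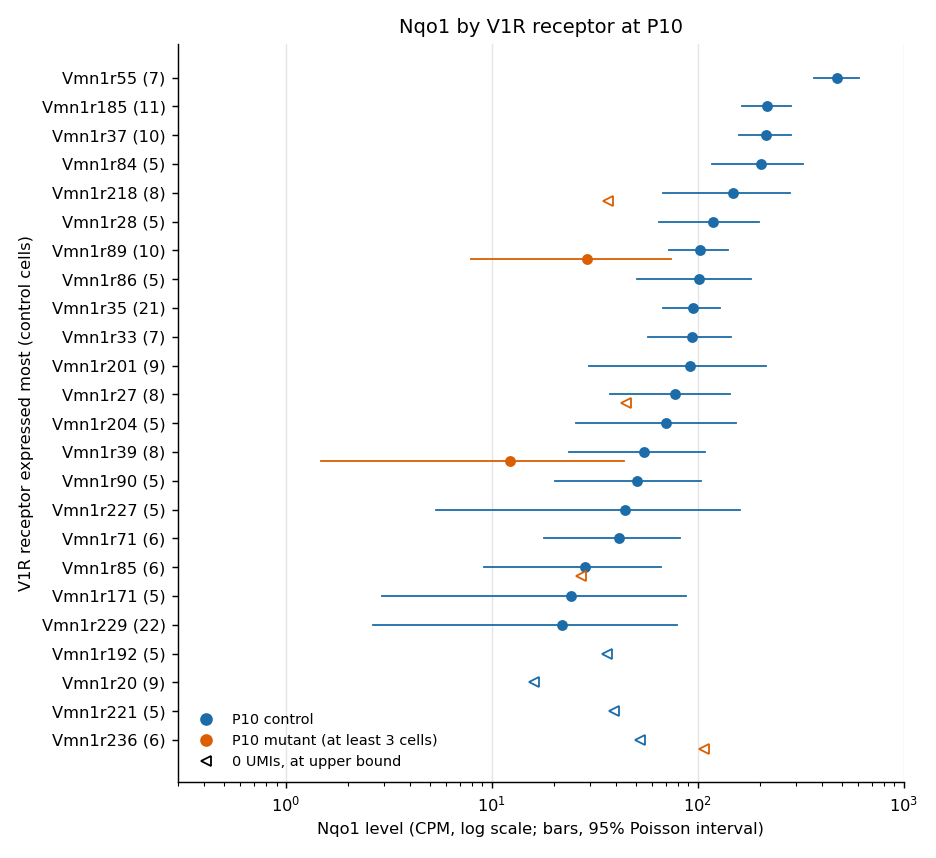
Nqo1 level (CPM, log axis) of V1R cells by the receptor they express most, for the 24 receptors with at least 5 cells in the control (number of cells in brackets), with the P10 mutant below where it has at least 3 cells. Bars are 95% Poisson intervals and open triangles mark the upper bound where no UMI was found; the control runs from 0 for 4 receptors to 476 CPM for Vmn1r55.

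The counts of cells that shared a receptor ranged widely for some receptors and were all 0 for others. Control cells of the mature clusters with at least 2000 UMIs were read. The 7 with Vmn1r35 had from 0 to 18 Nqo1 UMIs, with 4 at 0, and the 4 with Vmn1r89 had from 0 to 22, with 2 at 0. The 5 with Vmn1r218 had from 0 to 3. All 4 with Vmn1r221, and all 3 each with Vmn1r20, Vmn1r62 and Vmn1r84, had 0. These are raw UMIs of cells that differ in depth. The cells of Vmn1r84, Vmn1r20 and Vmn1r62 were shallow, with medians of 2213, 4885 and 6183 UMIs. For them 0 UMIs allow 394, 202 and 180 CPM. For Vmn1r221 the median was 20771.5 UMIs, and 0 UMIs allow 38.2 CPM.

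Receptors were then matched between the P10 libraries. Of 10 receptors with at least 3 V1R cells in both libraries, 9 had a lower value in the P10 mutant and 1, Vmn1r236, was at 0 in both. The counts are small, and the intervals of the P10 libraries lay apart only for Vmn1r21, Vmn1r51 and Vmn1r218. They overlapped for Vmn1r89, Vmn1r184, Vmn1r39, Vmn1r27, Vmn1r217 (2 UMIs in each library) and Vmn1r85 (5 against 0). Vmn1r21 stood at 260 CPM in the control and 8.40 CPM in the P10 mutant, Vmn1r89 at 102 and 29.1 CPM, and Vmn1r184 at 51.5 and 14.7 CPM. Vmn1r39 stood at 55.1 and 12.2 CPM and Vmn1r217 at 26.4 and 20.4 CPM. Vmn1r51, Vmn1r218, Vmn1r27 and Vmn1r85, at 199, 148, 78.0 and 28.3 CPM in the control, had 0 UMIs in the P10 mutant. With each of the 10 receptors given the same weight, the mean was 94.8 CPM in the control and 8.48 CPM in the P10 mutant. With neuronal clusters alone, 3 receptors could be compared at P10, of which 2 were lower in the mutant and 1 was at 0 in both. Of 9 receptors shared with the adult mutant over all V1R cells, 6 were lower in the mutant and 3 higher. For the adult mutant 3 receptors had at least 3 cells in the neuronal clusters of both libraries (Vmn1r35, Vmn1r37 and Vmn1r89), at 153, 266 and 291 CPM in the control and at 0 UMIs in the mutant.

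The P10 mutant was then compared with the control over all genes, to set Nqo1 beside other genes of its pathways. In V1R cells of the neuronal clusters, where Nqo1 stood at 170.5 CPM (157 to 185) in the control and 11.0 CPM (6.28 to 17.8) in the P10 mutant, 10955 genes had at least 20 UMIs in both libraries together. The ratio for Nqo1 was 0.0644 (0.0366 to 0.105), and 15 genes had a lower one. At least 4-fold lower were 0.621% of the genes, at least 2-fold lower 2.88% and at least 2-fold higher 2.47%. Nqo1 was chosen with earlier results of these libraries known, so its place in this order is no separate result.

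The other genes that NRF2 is known to drive did not, for the most part, share the difference. All 25 on the list passed the minimum in these cells, and their median log2 ratio, P10 mutant over control, was -0.03, beside 0.03 over all genes. With 0.5 counts added to each library, 3 of the 25 were at least 2-fold lower and 0 at least 2-fold higher, beside 2.88% and 2.47% of all genes. The 3 were Gpx2, a glutathione peroxidase of epithelium (3 UMIs against 39, ratio 0.182, 0.0361 to 0.574), Hmox1, which degrades haem (4 against 27, 0.351, 0.0893 to 1.01), and Osgin1 (4 against 24, 0.395, 0.0997 to 1.15), all low in counts. The glutathione transferase Gstm1 lay at the limit, at 0.483 (0.228 to 0.934), and in the mature clusters alone it was at 0.0607 (0.00150 to 0.358, 1 UMI against 40). Gpx2 and Hmox1 had too few UMIs in the mature clusters to pass the minimum. Of the 23 list genes that passed there, 3 were at least 2-fold lower and 1 at least 2-fold higher, beside 4.68% and 2.67% of all genes. Gpx2 was also among the 10 leading genes of sustentacular cluster 15. Of other listed genes of glutathione and thioredoxin metabolism, these had intervals that held 1: Gclc, the catalytic subunit of glutamate-cysteine ligase, at 0.978 (0.792 to 1.20), its modifier Gclm at 1.12 (0.909 to 1.37), the thioredoxin reductase Txnrd1 at 1.03 (0.813 to 1.29), the glutathione reductase Gsr at 0.852 (0.660 to 1.09), the sulfiredoxin Srxn1 at 1.60 (0.924 to 2.73) and the cystine transporter Slc7a11 at 1.58 (0.820 to 2.98). Below 1 with their intervals lay the peroxiredoxin Prdx1 at 0.592 (0.507 to 0.689), with levels of 146 against 247 CPM, and G6pdx, which feeds the pentose phosphate pathway, at 0.657 (0.480 to 0.888). Above 1 lay the ferritin chains Ftl1 at 1.30 (1.23 to 1.38) and Fth1 at 1.19 (1.16 to 1.22) and the malic enzyme Me1 at 1.46 (1.18 to 1.81).

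Of the regulators, Nfe2l2, the gene of NRF2 itself, was at 0.839 (0.682 to 1.03), Keap1 at 1.09 (0.762 to 1.53) and Bach1, a repressor at the same elements, at 1.30 (0.790 to 2.10). None of the 8 was 2-fold changed, and the median log2 ratio was 0.13. Of 8 genes of the AHR pathway 3 passed the minimum (Ahr at 1.17, Arnt at 1.19 and the target Tiparp at 0.920), and Cyp1a1, a target that is strongly induced where AHR is active, had 0 UMIs in both libraries. Of 10 other quinone and carbonyl reductases 6 passed and 0 were 2-fold changed in either direction: the paralog Nqo2 was at 1.29 (0.686 to 2.36), Cbr1 at 1.12 (0.920 to 1.37) and Por, the reductase of cytochromes P450, at 0.974 (0.808 to 1.17). Over all V1R cells, neuronal cluster or not, the NRF2 list had a median log2 ratio of 0.16 (0.06 to 0.27, an interval by ranks) beside -0.01 over all genes, with 0 of 25 past 2-fold either way, where 2.97% of genes were at least 2-fold lower and 2.91% at least 2-fold higher.

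**Figure D5:**
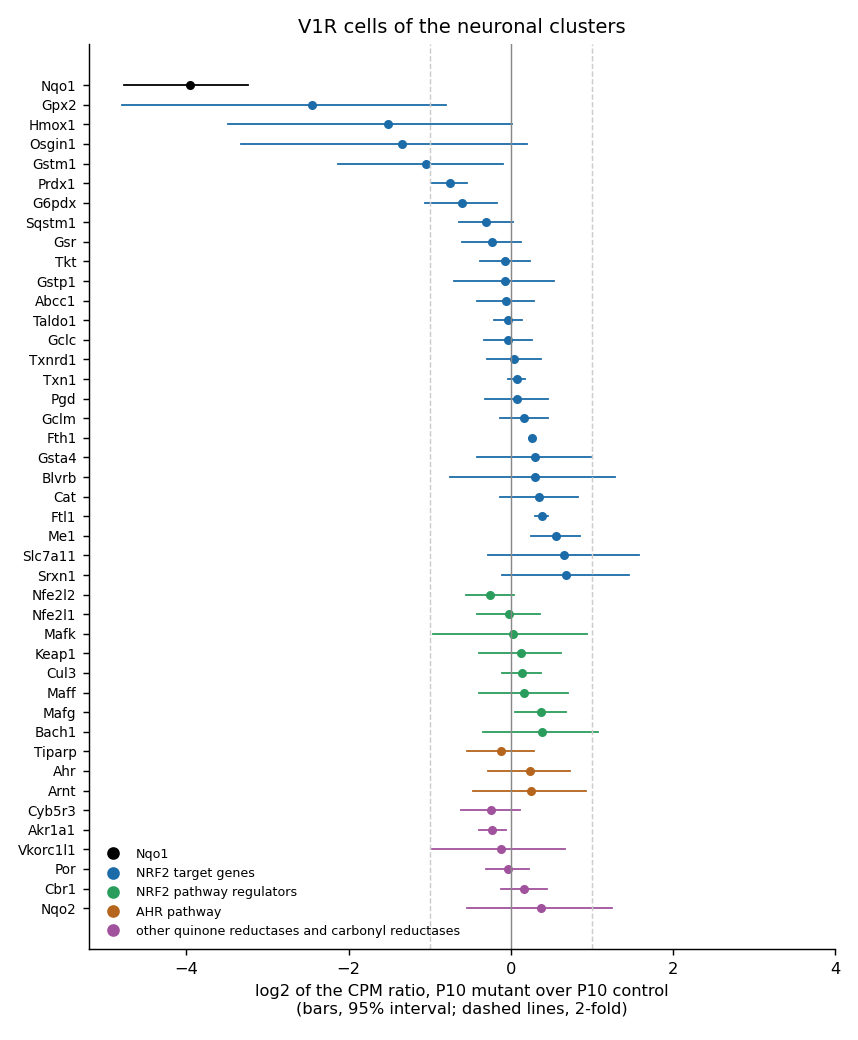
Log2 of the CPM ratio, P10 mutant over control, in V1R cells of the neuronal clusters, for Nqo1 and for list genes with at least 20 UMIs, coloured by list, with bars for the 95% interval and dashed lines at 2-fold. Nqo1 lies to the left of every list gene shown, and most genes of the NRF2 list lie around 0.

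Genes that separate zones and axon targets of chemosensory neurons were also read, as Nqo1 is known as a zone gene of the olfactory epithelium. Of 10 on the list 8 passed, 0 were at least 2-fold lower and 1 at least 2-fold higher in the P10 mutant. Kirrel2, an adhesion molecule of axon sorting, was at 0.538 (0.452 to 0.636), and its relative Kirrel3 at 2.11 (1.70 to 2.62). Nrp2, the semaphorin receptor of apical axons, was at 0.881 (0.797 to 0.973), Robo2, the Slit receptor of basal axons, at 1.38 (0.922 to 2.05) and Ncam2, also known as a zone gene, at 1.09 (0.902 to 1.31). Acsm4, a marker of the same dorsal olfactory zone as Nqo1, had 0 UMIs in the P10 mutant and 2 in the control. Of the apical and basal identity genes, 2 of 7 were at least 2-fold higher, Tfap2e at 37.9 times (28.5 to 51.5) and the basal G protein subunit Gnao1 at 2.19 (1.83 to 2.62), while Gnai2 was at 0.825 (0.792 to 0.860) and Meis2 at 0.887 (0.837 to 0.940).

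Within the control the same lists were compared between V1R and V2R cells of the mature clusters, where Nqo1 was at 16.4 times (8.83 to 34.3), 251 against 15.3 CPM. Of 9586 genes, 7.75% were at least 2-fold higher in V1R cells and 4.33% at least 2-fold lower. Of the NRF2 list 23 of 25 passed, 3 were at least 2-fold higher and 2 at least 2-fold lower, and the median log2 ratio was 0.20 beside 0.01 over all genes. The 3 were the glutathione transferases Gstp1 (2.33, 1.11 to 5.61) and Gstm1 (2.26, 0.891 to 7.33) and Osgin1 (2.68, 0.647 to 23.7), and the 2 were Slc7a11, the cystine transporter (0.118, 0.0502 to 0.255), and Blvrb, a biliverdin and flavin reductase (0.199, 0.104 to 0.371). Nfe2l2 was at 2.50 (1.72 to 3.76), 119 against 47.5 CPM. Of the zone and guidance genes, Nrp2 was at 6.97 (4.81 to 10.5) and Ncam2 at 4.94 (2.89 to 9.17), and Robo2 at 0.0374 (0.0192 to 0.0670).

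The genes whose level over 20 cell classes of the control was most like that of Nqo1 were Fn3k, Pvalb, Gramd1c, Mbl2 and Coro6, with Pearson r from 0.905 to 0.926 of log2(CPM + 10) among 15210 genes. The classes share 1 library, and the mature neurons weigh heavily in such an r. In V1R cells of the neuronal clusters these genes were at 1.84 (0.849 to 3.92), 0.641 (0.481 to 0.845), 0.593 (0.460 to 0.757), 0.637 (0.393 to 1.00) and 0.488 (0.183 to 1.12) of the control level in the P10 mutant, all above the ratio of Nqo1. Over the 24 receptors the 10 most like genes were Mysm1, Kiz, Macrod1, Cep70, Crcp, Gpkow, Mapk6, Ctu2, Mslnl and Mrps18c, with r from 0.574 to 0.642 among 8089 genes. With mature-cluster cells alone, over 18 receptors with at least 3 cells, 0 of these 10 were among the 10 most like, of 2859 genes.

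V1R cells of the control with an Nqo1 UMI were set against those without one, 139 against 221 cells with a median of 25414 and 11403 UMIs, so that depth differs between them. Their clusters differ too. An Nqo1 UMI was found in 73 of 142 cells of the mature clusters, 8 of 78 of the immature clusters and 58 of 140 outside the neuronal clusters. Stoml3, a stomatin-like protein of sensory cilia, was at 36.9 times (9.97 to 309), 105 UMIs against 2, followed by Itga1, Pvalb, Pglyrp1 and Adra1a at 9.14, 2.91, 2.54 and 5.16 times. Stoml3 is also among the markers used here for main olfactory neurons. Lower were Ccrl2, C1qb, Tex15, Prrxl1 and Apoe, at 0.0160, 0.0356, 0.106, 0.0533 and 0.144, of which C1qb and Apoe are macrophage genes. Some of these genes differ by cluster. Tex15 had 741 UMIs in control V1R cells of the neuronal clusters and 105 in those of the mature clusters, and Prrxl1 had 56 and 0. Pglyrp1 and Adra1a had 35 and 3 UMIs in the neuronal clusters, against 894 and 44 over all V1R cells with an Nqo1 UMI. In mature-cluster cells with at least 2000 UMIs, 70 with and 50 without, a comparison added after the data were seen, the 5 highest were Gm16141, Meg3, Errfi1, Sult1e1 and Ppic, and the 5 lowest Socs3, Kirrel2, Spp1, Epha7 and Col1a1. Of these, the long noncoding RNA Meg3 was at 3.51 times (2.91 to 4.27, 630 against 179 CPM) and the oestrogen sulfotransferase Sult1e1 at 3.82 times (1.98 to 8.24). Kirrel2 was at 0.406 (0.349 to 0.471, 216 against 533 CPM) and Epha7, an ephrin receptor of axon guidance, at 0.327 (0.200 to 0.530). Depth differed here too, with a median of 23808 UMIs with Nqo1 and 11237.5 without. Meg3 and Sult1e1 were also among the 10 leading genes of sustentacular cluster 1, and Ppic among those of sustentacular cluster 15. Spp1 and Col1a1 were among the 10 leading genes of osteoblast clusters 19 and 20. The part of RNA from other cells in these values was not tested. In mature V1R cells of the P10 mutant, Meg3 was at 0.335 (0.282 to 0.397), Sult1e1 at 0.227 (0.106 to 0.434) and Stoml3 at 0.287 (0.139 to 0.538) of the control, while Itga1 was at 2.49 (1.58 to 3.92) and Gm16141 at 1.13 (0.724 to 1.73).

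Members just inside and just outside the V1R rule were also read. Barcodes with 5 to 9 receptor UMIs stood at 34.3 CPM (24.5 to 46.8) in the control, 11.8 CPM in the P10 mutant and 124 CPM in the adult mutant, and 36.0%, 24.3% and 37.3% of them lay in neuronal clusters. Those with 2 to 4 receptor UMIs, outside the rule, stood at 13.8, 11.5 and 58.5 CPM, and 8.01%, 4.85% and 12.2% lay in neuronal clusters. Those with at least 10 stood at 132, 12.0 and 64.7 CPM.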

How the data were processed

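Libraries were made with Chromium Next GEM 3′ v3.1 chemistry from frozen suspensions. The deposited values are whole counts of UMIs per gene and barcode, which per the file headers the authors made with Cell Ranger 4.0.0 (P10) and 6.0.1 (3 months) on mm10. The study used Seurat, with a mitochondrial limit of 5%. Here barcodes with 200 to 9000 genes and at most 10% mitochondrial UMIs were kept (the stricter limit keeps 1576, 1275 and 4541). Leiden clustering (scanpy 1.11.5, 30 components, 20 neighbours, resolution 1.5) left out receptor and mitochondrial genes and the genes of the lists. Clusters were named from marker lists, with a scoring rule set after the clusters were seen, so differences from the study can come from rebuilt names. Scrublet marked 0, 0 and 1 barcodes, so it had not worked, and doublets were kept in the main values. No correction for free RNA was made.

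Levels are pooled CPM with exact Poisson intervals, ratios have conditional exact binomial intervals and shares Clopper-Pearson intervals, all at 95% (scipy 1.17.1). A count of 0 was taken to allow 3 counts. Log2 ratios of listed genes, their 2-fold calls and medians used 0.5 added counts. With 1 library per group no test was made. The gene and the lists were chosen with earlier results of these data known. Named were Nqo1, list genes, the 10 genes most like it over receptors and the 5 over cell classes, the 5 highest and 5 lowest by interval bound between cells with and without an Nqo1 UMI, the 5 highest and 5 lowest receptors (here all at 0 and Vmn1r229) and those with at least 3 cells in both P10 libraries. The ratio and likeness code was tested on simulated data. The alternatives were other limits on mitochondrial, receptor and total UMIs, other choices of barcodes, doublet removal, thinning and other averages. Doublet removal took out the barcodes with the highest Scrublet scores, in numbers preset at 0.8% per 1000 barcodes (538, 629 and 848). Whether these barcodes were doublets was not tested.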

Additional observations from a re-analysis of the deposited data

Results flagged for a closer look

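At P10 the values of the 2 receptor classes lay on opposite sides of the control: P10 mutant over control was 0.102 in V1R cells and 2.32 in V2R cells. In V2R cells 14 of the 26 UMIs of the P10 mutant lay outside the neuronal clusters, and within these clusters each library had 12 UMIs, at 10.7 CPM (5.52 to 18.7) in the control and 17.6 CPM (9.10 to 30.8) in the P10 mutant. Between the mutants, the ratio of 3 months to P10 was 0.158 in mature V1R cells, from 1 UMI against 13 and with an interval that reached 1 (0.00371 to 1.05), and 6.90 in sustentacular cells. With 1 library per group, neither difference was tested.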

How the results depend on the processing

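The V1R level of the P10 mutant over the control, 0.102, stayed below 1 in all 15 alternatives, between 0.0545 and 0.158. It was 0.0681 with a mitochondrial limit of 5%, 0.158 with 2 receptor UMIs, 0.0644 in neuronal clusters, 0.0651 in cells with an Omp UMI and, in alternatives added after seeing the data, 0.0646 in neuronal clusters with at least 2000 UMIs, 0.0640 in neuronal clusters at the 5% limit and 0.0545 in the mature clusters. The adult over the P10 mutant, 6.61, fell to 4.07 at the 5% limit and 3.50 as a mean over cells, and turned to 0.174 in neuronal clusters, 0.183 with 2000 UMIs, 0.294 at the 5% limit there and 0.158 in the mature clusters. V1R over V2R cells of the control, 11.4, was 35.8 at the 5% limit, 37.1 with neuronal clusters too and 2.77 with 2 receptor UMIs; thinning left V2R cells at 0 and gave no value. V1R over sustentacular cells, 9.19, was 14.4, 6.54, 13.4, 12.1 and 7.03 under the 5% limit, 2 receptor UMIs, neuronal clusters, Omp cells and thinning, and 13.6, 15.4 and 19.7 in the 3 added sets. V1R over immature neurons, 32.9, ran from 22.03 to 70.5. The share with a UMI, 38.6%, was 13.3% thinned, 46.5% at the 5% limit, 46.0% with 10 receptor UMIs and 51.4% in the mature clusters. Receptors with an Nqo1 UMI, 20 of 24, were 4 of 4 at the 5% limit, 5 of 5 with at least 10 cells each and 9 of 10 in neuronal clusters. The median log2 ratio of the NRF2 list, 0.16, turned to -0.11 at the 5% limit, -0.029 in neuronal clusters and -0.024 in the mature clusters. The cause of these shifts was not tested.

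No paired analysis was possible because each group is 1 library. There was no replicate to leave out. Doublets, free RNA and shallow adult neurons limit all levels, and intervals cover counting error only.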
